A study of Mus musculus with 6 samples.

Results

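Transcripts of the caveolins, the cavins and the caveola neck proteins were followed in whole mammary glands of Cav-3 knockout (Cav-3KO) and wild-type (WT) mice. The members were 10 genes taken by name, and every probe set annotated to 1 of their symbols alone was used. This gave 20 of 45037 probe sets, for 9 of the 10 genes: Cav1, Cav2, Cav3, Cavin1, Cavin2, Cavin3, Cavin4, Ehd2 and Pacsin3. Pacsin2 was not analysed here. Both groups were untreated virgin females of the FVB/N strain at 4 months of age, with 3 Cav-3KO and 3 WT glands, each read on 1 single-channel Affymetrix array. The labels name no other allele in either group, and do not say which stretch of Cav3 is missing or whether any glands share a mouse, so p-values measure the spread between these glands, which may be technical.

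Caveolae are small flask-shaped pits of the plasma membrane that buffer membrane tension and gather signalling proteins, and they are abundant in adipocytes, endothelium and muscle. Caveolin-1 and caveolin-3 build the inner coat, caveolin-3 mainly in muscle, and caveolin-2 joins caveolin-1. Cavins assemble around the caveolin coat, and EHD2 and the pacsins bind at the neck, where EHD2 restrains the pit from leaving the membrane.

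All values are log2 signals made by RMA, 1 per probe set and array. A level is given in log2 units, a difference is Cav-3KO minus WT with its moderated standard error (SE), and p-values are from limma with Benjamini-Hochberg adjustment across the 45037 probe sets, called at 0.05. Array medians lay between 5.77 and 5.80, and pairs of arrays correlated at 0.977 to 0.987 between genotypes and 0.990 to 0.995 within them. On these female arrays 8 probe sets of 4 Y-linked genes read 1.90 to 3.57, taken here as the level with no transcript. Y-linked sets that can match several transcripts were left out. Of the 20 member sets 18 stood above that range on every array. Standing above the range of so few sets does not by itself show that a transcript is present. Only 3 arrays per group limit the precision, and levels of different probe sets cannot be set against each other.

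The bases before the transcription start of 3 members are shown first: Cavin2, the member with calls in these data, Cav1, the caveolin of most tissues, and Cav3, the disrupted gene. Each line holds 250 bases upstream of a RefSeq start on the plus strand (GRCm38.p6), at chr1:51288876-51289125, chr6:17306085-17306334 and chr6:112459255-112459504. Capitals mark matches to any of 4 short motifs on either strand. The GC box, bound by Sp1 and its relatives, was searched as GGGCGG. The site of the factor NF-Y was searched as the letters CCAAT. The core promoter element bound by TBP was searched as TATAAA. The E-box, read by helix-loop-helix factors such as those of muscle, was searched as CANNTG.
Cavin2: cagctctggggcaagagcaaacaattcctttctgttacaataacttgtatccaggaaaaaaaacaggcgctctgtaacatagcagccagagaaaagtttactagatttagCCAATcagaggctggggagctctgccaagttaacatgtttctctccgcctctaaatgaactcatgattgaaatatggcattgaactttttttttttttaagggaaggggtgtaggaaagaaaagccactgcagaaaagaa
Cav1: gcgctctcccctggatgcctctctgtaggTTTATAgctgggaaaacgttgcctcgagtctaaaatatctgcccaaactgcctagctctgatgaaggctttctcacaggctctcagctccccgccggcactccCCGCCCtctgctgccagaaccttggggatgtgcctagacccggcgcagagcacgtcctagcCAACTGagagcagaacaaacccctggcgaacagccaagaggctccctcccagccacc
Cav3: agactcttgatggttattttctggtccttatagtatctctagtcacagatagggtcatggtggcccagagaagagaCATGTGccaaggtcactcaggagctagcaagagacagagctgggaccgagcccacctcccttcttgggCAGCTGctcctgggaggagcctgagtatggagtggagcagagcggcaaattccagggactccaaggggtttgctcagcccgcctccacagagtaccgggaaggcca
The Cavin2 window held 1 NF-Y motif and none of the other 3 motifs. The Cav1 window held 1 GC box, 1 TBP motif and 1 E-box, and the Cav3 window held 2 E-boxes alone. The TBP motif of Cav1 lay near the end of its window that is farthest from the start. Cav1 had a further RefSeq start, not shown, whose window (chr6:17307390-17307639) held 1 E-box and none of the other 3 motifs. No matches overlapped in these windows. Of 32851 RefSeq promoter windows of this length 33.8% held an NF-Y motif, 32.7% a GC box, 12.4% a TBP motif and 66.2% an E-box, so such matches are found in many promoters. Of the 10 members 9 had an entry, with 14 windows among them.

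Caveolin transcripts were not called changed. Cav3, the gene disrupted in the knockout, had 1 probe set (1418413_at), which read 4.76, 4.83 and 4.72 in Cav-3KO glands 1 to 3, against 4.79, 5.02 and 4.74 in WT glands 1 to 3. The groups overlapped and WT 2 was the highest gland. The set was dim, with a mean level at percentile 36.5 of all sets tested. How well it reports the Cav3 transcript was not tested. The difference was −0.08 ± 0.10 (SE, adjusted p = 0.679), and 0.0063 without WT 2. Where the set lies relative to the removed part of Cav3 is not given in the sources used here, so it does not check the genotype labels.

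Cav1, which encodes the main coat protein outside muscle, was measured by 1 set (1449145_a_at), which read 12.10, 11.66 and 12.02 in Cav-3KO glands and 12.10, 12.37 and 12.47 in WT glands. The Cav-3KO values lay below the WT values, though the closest glands, Cav-3KO 1 and WT 1, differ only in the third decimal. The difference was −0.39 ± 0.15 (SE, adjusted p = 0.131), with a moderated 95% interval of −0.73 to −0.05, which like the other intervals here is not adjusted for the number of sets. In whole-gland RNA, fewer cells of a type and less RNA per cell cannot be told apart.

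Cav2, the neighbour of Cav1 on chromosome 6 and its partner in the coat, was measured by 2 probe sets. Its brighter set (1417327_at) read 11.90, 11.87 and 11.70 in Cav-3KO glands and 11.98, 12.20 and 12.31 in WT glands, so the groups did not overlap. The difference was −0.34 ± 0.11 (SE, adjusted p = 0.0926, 95% interval −0.60 to −0.08). The dimmer set (1425955_at) differed by −0.17 ± 0.10 (adjusted p = 0.305), and its groups overlapped.

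**Figure D1:**
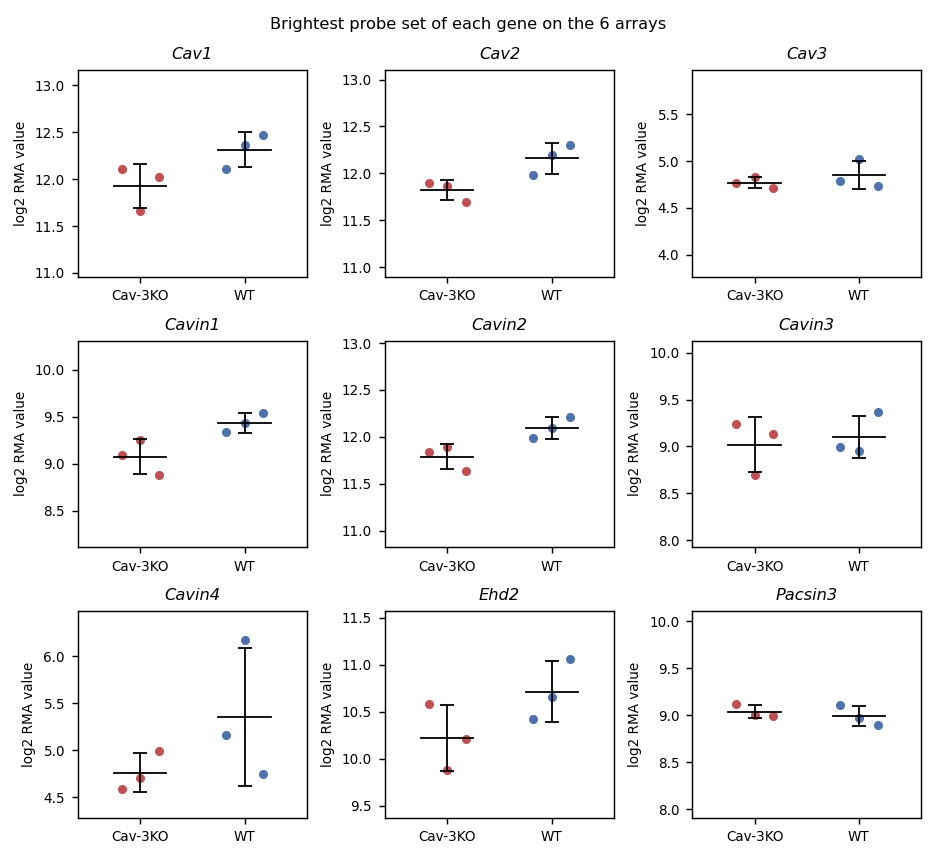
Log2 RMA value (vertical axis, spanning 2.2 units in each panel) of the brightest probe set of each of the 9 measured genes, with Cav-3KO glands left and WT glands right; points are arrays in the order 1 to 3, bars the mean and whiskers the SD (n = 3). Cav-3KO points lie below all WT points for Cav1, Cav2, Cavin1 and Cavin2, and the groups overlap for the other 5 genes.

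Cavin2, also known as Sdpr, was the only member with probe sets past the threshold: 2 of its 3 sets fell. Its protein joins cavin-1 in the caveola coat and shapes the membrane. Set 1443832_s_at, which can match several transcripts, read 9.43, 9.26 and 9.11 in Cav-3KO glands, against 9.99, 10.15 and 10.22 in WT glands. It fell by 0.86 ± 0.11 log2 units (SE), or 1.81-fold, with an adjusted p of 0.00473. Set 1416779_at read 8.71, 8.24 and 8.26 in Cav-3KO glands and 9.13, 9.28 and 9.49 in WT glands. It fell by 0.89 ± 0.15 log2 units (SE), or 1.86-fold, with an adjusted p of 0.0111. Every Cav-3KO gland was below every WT gland in both sets. Both kept the call whichever single array was left out, at adjusted p of 0.00688 to 0.0228 for 1443832_s_at and 0.00686 to 0.0497 for 1416779_at.

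The brightest Cavin2 set, 1416778_at, did not pass. It read 11.84, 11.89 and 11.64 in Cav-3KO glands and 11.98, 12.09 and 12.21 in WT glands, a difference of −0.31 ± 0.11 (SE, adjusted p = 0.104) with groups that did not overlap. The gap between 1416778_at and 1443832_s_at on the same array was 2.52 ± 0.12 in Cav-3KO and 1.98 ± 0.03 in WT (SD, n = 3). Between 1416778_at and 1416779_at the gap was 3.39 ± 0.26 in Cav-3KO and 2.80 ± 0.06 in WT. Neither gap overlapped between groups. The gaps were compared after the values of the sets were seen, and the two-sided exact permutation p of 0.1 for each is the smallest that 3 against 3 allow, so they are given as a description.

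**Figure D2:**
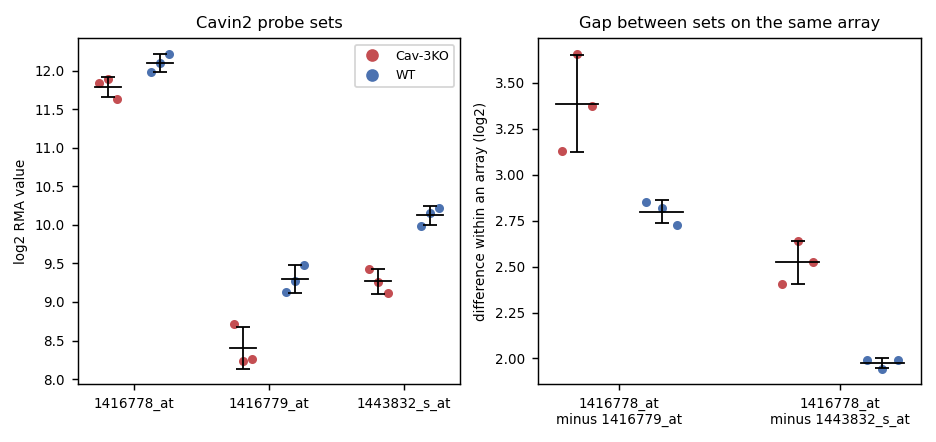
Left, log2 RMA values of the 3 Cavin2 probe sets, Cav-3KO glands left of WT glands within each set; right, the log2 gap on the same array between 1416778_at and each of the other sets. Points are arrays, bars the mean and whiskers the SD (n = 3): the mean gaps are 3.39 and 2.52 in Cav-3KO, against 2.80 and 1.98 in WT.

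Cavin1, also known as Ptrf, encodes the cavin without which caveolae do not form. Its brightest set (1424130_a_at) read 9.09, 9.25 and 8.88 in Cav-3KO glands and 9.33, 9.43 and 9.54 in WT glands. The groups did not overlap, and the difference of −0.36 ± 0.12 (SE) did not pass (adjusted p = 0.0868, 95% interval −0.63 to −0.09). Without Cav-3KO 2 it passed, at −0.45 and adjusted p = 0.0426. The 2 dimmer Cavin1 sets differed by −0.18 and −0.19 (adjusted p = 0.368 and 0.300), and one of these, 1421431_at, lay within the Y-linked range.

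Cavin3, or Prkcdbp, encodes a cavin that binds a protein kinase C isoform. Its 1 set (1423771_at) read 9.24, 8.69 and 9.13 in Cav-3KO glands and 9.00, 8.95 and 9.36 in WT glands, with groups that overlapped widely. The difference of −0.08 ± 0.17 (SE, adjusted p = 0.806, 95% interval −0.48 to 0.31) turned to 0.08 without Cav-3KO 2 and to 0.05 without WT 3.

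Cavin4, or Murc, encodes the cavin of striated muscle. Its 1 set (1420551_at) read 4.59, 4.70 and 4.99 in Cav-3KO glands and 5.16, 6.17 and 4.74 in WT glands. The groups overlapped, since WT 3 lay below Cav-3KO 3, and WT 2 stood about 1 unit above the next gland. The difference was −0.59 ± 0.32 (SE, adjusted p = 0.286), −0.19 without WT 2 and −0.90 without WT 3.

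Skeletal muscle transcripts varied between glands in nearly the same order as Cavin4. The mean of 15 skeletal muscle genes, Acta1 and Ckm among them, was 4.91, 6.42 and 6.98 in Cav-3KO glands and 7.77, 8.91 and 5.40 in WT glands. Cav-3KO 1 was lowest and WT 1 and WT 2 were highest in both measures. Over the 6 arrays Cavin4 followed this mean with Pearson's r = 0.90 (exact permutation p = 0.00278, 0.00556 adjusted over the 2 genes compared) and Spearman's rho = 0.94 (exact permutation p = 0.0167, adjusted 0.0333), and r was 0.87 over the 4 arrays left without Cav-3KO 1 and WT 2. For Cav3, r was 0.72 (exact permutation p = 0.0861, adjusted 0.0861) and rho 0.49 (exact permutation p = 0.356, adjusted 0.356), and r was 0.22 without the same 2 arrays, so that relation rests on them. These correlations were not among the comparisons set out beforehand. Both relations pool the genotypes, and both genes and the muscle mean averaged lower in Cav-3KO. The p-values therefore do not separate a genotype difference from the spread between glands. Cav3 is disrupted in Cav-3KO, so its r does not tell how the set behaves in WT. In WT glands Cav3 and the muscle mean had the same order. Among Cav-3KO glands, Cav-3KO 3 had the lowest Cav3 value and the highest muscle mean. With 3 arrays each, neither genotype could be tested alone. With the muscle mean as a covariate, a setting chosen after seeing the data, the Cavin4 difference was −0.20 (adjusted p = 0.618) and the Cav3 difference −0.02 (adjusted p = 0.955). Of the 15 muscle genes 0 passed in limma in either direction, and 0 had an unadjusted p under 0.05, while 1 was lower without WT 3. Acta1, skeletal actin, differed by −1.70 ± 1.29 and Ckm, muscle creatine kinase, by −1.29 ± 0.82 (SE, adjusted p = 0.455 and 0.365).

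**Figure D3:**
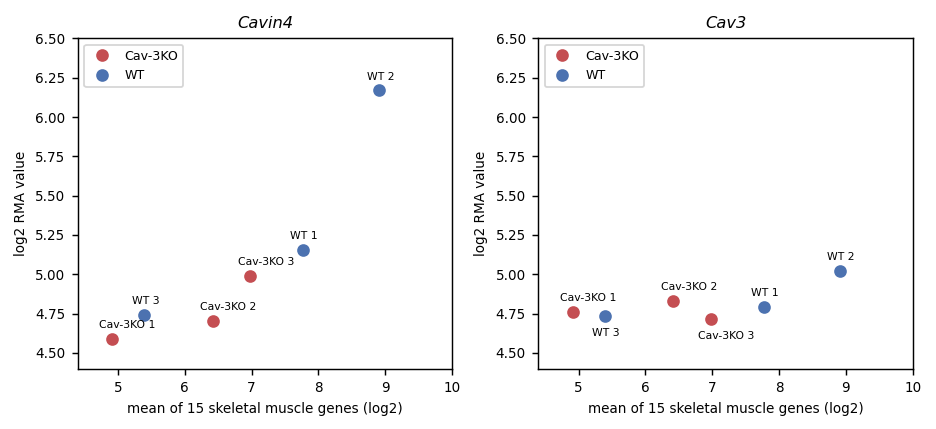
Log2 RMA value of Cavin4 (left) and Cav3 (right) against the mean log2 value of 15 skeletal muscle genes on the same array, 1 labelled point per array, on the same axes. Cavin4 runs between 4.59 in Cav-3KO 1 and 6.17 in WT 2 as the muscle mean goes up, while Cav3 stays between 4.72 and 5.02.

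Transcripts of the neck proteins were not called changed. Ehd2 encodes the ATPase that rings the neck, and had 5 probe sets. The brightest (1424157_at) read 10.58, 9.87 and 10.21 in Cav-3KO glands and 10.42, 10.65 and 11.07 in WT glands, with Cav-3KO 1 inside the WT range. Its difference was −0.49 ± 0.21 (SE, adjusted p = 0.184). Set 1459823_at read 10.14, 9.75 and 9.77 in Cav-3KO glands and 10.07, 10.22 and 10.53 in WT glands. It differed by −0.38 ± 0.15 (SE, adjusted p = 0.149), and by −0.54 (adjusted p = 0.0457) with the muscle mean as a covariate. The other 3 Ehd2 sets differed by −0.20, −0.05 and 0.09, with adjusted p of 0.419 to 0.825, and 1427729_at lay within the Y-linked range.

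Pacsin3 encodes the pacsin of muscle, whose membrane-bending domain binds the caveola neck. It was the 1 measured gene whose sets all read higher on average in Cav-3KO, and none passed. Its brightest set (1437834_s_at) read 9.12, 9.00 and 8.99 in Cav-3KO glands and 9.11, 8.97 and 8.89 in WT glands, nearly the same in both. The difference was 0.05 ± 0.09 (SE, adjusted p = 0.803, 95% interval −0.17 to 0.27). The other 2 sets, 1416995_at and 1456191_x_at, differed by 0.21 ± 0.12 and 0.14 ± 0.09 (SE, adjusted p = 0.339 and 0.389), with overlapping groups.

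Over all member sets, 2 of 20 were lower and 0 higher in Cav-3KO by limma, both of them Cavin2 sets. Among all 45037 probe sets 6.57% were lower and 5.74% higher, so the members' share of lower sets is that of 1 gene and near the background. At an unadjusted p under 0.05 there were 7 of the 20 sets, or 35.0%, against 27.7% of all sets. Groups did not overlap for 6 of the 20, all lower in Cav-3KO, against 17.2% lower and 15.4% higher among all sets. By sign alone 16 of the 20 were lower, against 52.1% of all sets, with a median difference of −0.19 against −0.01. Sets of 1 gene share their transcript and are not independent. With each gene shown by its brightest set, 0 of 9 genes passed by limma, against 7.65% of 18193 genes higher and 8.51% lower (16.2% in all), groups did not overlap for 4 of 9, all lower in Cav-3KO, against 19.8% of genes lower and 18.5% higher, and 4 of 9 had an unadjusted p under 0.05, against 33.6%. With the mean of a gene's sets 1 gene passed, Cavin2, at −0.69 ± 0.11 (SE, adjusted p = 0.0111), against 8.39% of genes lower.

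**Figure D4:**
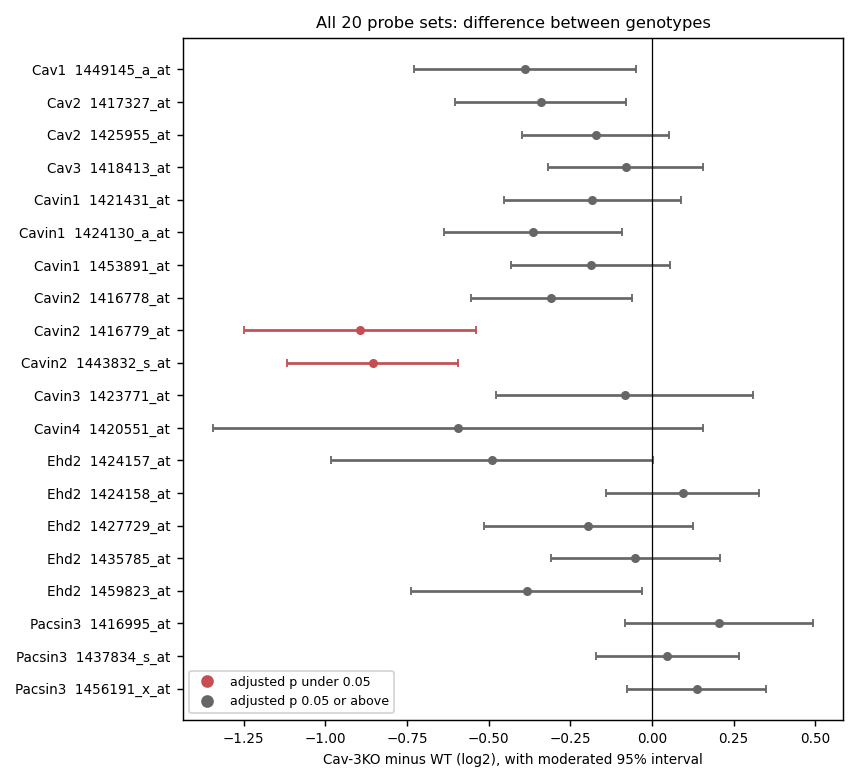
Difference between Cav-3KO and WT (log2, horizontal axis) for all 20 probe sets, grouped by gene; points are limma estimates and whiskers moderated 95% intervals (3 arrays per group), red where the adjusted p is under 0.05. The 2 red sets are Cavin2 sets at −0.89 and −0.86, and the other 18 lie between −0.59 and 0.21.

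Markers of adipocytes and endothelium, where caveolae are abundant, did not move together. The counts of each list here and below stand beside 8.51% of all 18193 genes lower and 7.65% higher by limma. The white adipocyte list, in which 6 of 9 measured genes were lower and 0 higher, had array means of 11.26 to 11.60 in Cav-3KO and 11.94 to 12.18 in WT, and a median difference of −0.60. Adipoq, the adiponectin gene, fell by 0.43 ± 0.10 (SE, adjusted p = 0.0281, and 0.0517 to 0.0971 without Cav-3KO 2, Cav-3KO 3, WT 1 or WT 3). The count was 3 without Cav-3KO 3, 3 without WT 3 and 4 without WT 1. Brown adipocyte genes were lower in 4 of 7, with means of 6.75 to 6.87 in Cav-3KO and 8.00 to 9.27 in WT, and a median difference of −1.38. Ucp1, the uncoupling protein, was 1 of the 4 (adjusted p = 0.0453, and 0.0834 to 0.136 without WT 1 or any 1 Cav-3KO gland), while Cidea, a lipid droplet gene, differed by −1.12 ± 0.39 (SE, adjusted p = 0.109, and 0.0178 without Cav-3KO 2). The endothelial list gave 1 of 12 higher and 2 lower, with means of 8.46 to 8.68 in Cav-3KO and 8.57 to 8.73 in WT. Pecam1 and Cdh5, the first 2 genes of that list, differed by −0.27 ± 0.13 and −0.04 ± 0.10 (SE, adjusted p = 0.237 and 0.864). No endothelial gene was lower without Cav-3KO 3, WT 2 or WT 3, and 1 was without Cav-3KO 1 or WT 1.

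Unlike the adipocyte lists, the luminal and basal lists and the mean of the smooth muscle and pericyte list were higher in Cav-3KO. Luminal genes were higher in 8 of 8 measured members, with means of 11.04 to 11.12 in Cav-3KO and 9.41 to 9.95 in WT, and 5 were without Cav-3KO 1, Cav-3KO 3 or WT 3. The luminal keratin gene Krt8 rose by 0.86 ± 0.18 (SE, adjusted p = 0.0226), and by 0.83 to 0.89 without those arrays (adjusted p = 0.0546 to 0.0782). Krt18, its partner keratin, rose by 0.88 ± 0.23 (SE, adjusted p = 0.0451, and 0.101 to 0.106 without those arrays or WT 2). Basal genes were higher in 5 of 6, with means of 8.54 to 8.87 in Cav-3KO and 7.65 to 7.86 in WT, and 3 were without Cav-3KO 1 or WT 3. Krt5, a keratin of the basal layer, was higher by 1.25 ± 0.10 and Krt14, which pairs with it, by 1.32 ± 0.19 (SE, adjusted p = 0.000977 and 0.00612). Smooth muscle and pericyte genes, including the contractile genes Myh11 (adjusted p = 0.0246) and Cnn1 (adjusted p = 0.0179), were higher in 4 of 10 and lower in 1, with means of 9.04 to 9.25 in Cav-3KO and 8.72 to 8.87 in WT. That count of 4 was 2 without Cav-3KO 3, WT 1 or WT 2, and 1 without WT 3. Whether these transcripts came from smooth muscle or from basal epithelium was not tested. Myh11 did not pass without Cav-3KO 3, WT 1 or WT 3, nor Cnn1 without WT 2 or WT 3. Fibroblast and macrophage lists overlapped between genotypes, with 1 of 7 lower and with 1 of 6 higher and 1 lower. No fibroblast gene passed without Cav-3KO 3, WT 1 or WT 3, and no macrophage gene without Cav-3KO 3, WT 1 or WT 2. The fibroblast genes Col1a1 and Pdgfra differed by 0.73 ± 0.30 and −0.26 ± 0.15 (SE, adjusted p = 0.159 and 0.306), and the macrophage genes Adgre1 and Csf1r by −0.16 ± 0.10 and −0.28 ± 0.10 (SE, adjusted p = 0.356 and 0.121). The part of these cell types in the Cavin2 difference was not tested.

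**Figure D5:**
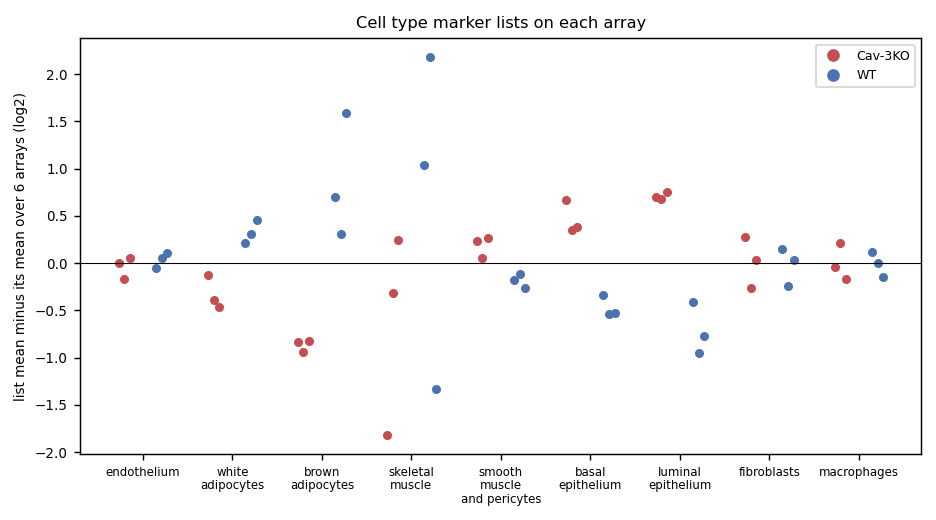
Mean log2 value of 9 cell type marker lists on each array, less its mean over the 6 arrays, with Cav-3KO glands left of WT glands for each list. Both adipocyte lists lie lower in every Cav-3KO gland, the luminal, basal and smooth muscle lists lie higher, and the endothelial, skeletal muscle, fibroblast and macrophage lists overlap.

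Among 19 further genes of caveolae and related membrane scaffolds, all measured, 2 were higher and 3 lower, with a median difference of −0.22. This share of 5 in 19 stands beside 16.2% of all genes. Src, the kinase that phosphorylates caveolin-1, read 7.91, 7.47 and 8.01 in Cav-3KO glands and 6.83, 6.83 and 6.75 in WT glands, and rose by 0.99 ± 0.14 (SE, adjusted p = 0.00611), with both of its sets past the threshold. Flna, filamin A, which ties caveolae to actin, read 10.23, 9.99 and 10.03 in Cav-3KO glands and 9.47, 9.65 and 9.58 in WT glands, and rose by 0.51 ± 0.10 (adjusted p = 0.0176, and 0.0536, 0.0620 and 0.0578 without Cav-3KO 3, WT 1 or WT 3, and 0.0511 with the muscle covariate). Both were above all WT glands in each Cav-3KO gland.

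Nos3, the endothelial nitric oxide synthase that caveolin-1 binds and restrains, read 8.60, 8.61 and 8.46 in Cav-3KO glands and 9.10, 9.25 and 9.42 in WT glands. It fell by 0.70 ± 0.11 (SE, adjusted p = 0.00734), beside an endothelial list whose groups overlapped. Lipe, the hormone-sensitive lipase of fat cells, fell by 0.84 ± 0.17 (SE, adjusted p = 0.0190, and 0.0753 without Cav-3KO 3 and 0.0518 without WT 1), with 1 of its 2 sets past the threshold. Stom, the membrane scaffold stomatin, fell by 0.79 ± 0.16 (SE, adjusted p = 0.0204, and 0.0738, 0.0521 and 0.0597 without Cav-3KO 3, WT 1 or WT 3), with 3 of its 6 sets past it. Abl1, a kinase tied to caveolae and stress fibres, differed by 0.31 ± 0.09 (adjusted p = 0.0624). Without Cav-3KO 3 the related list held 1 higher and 1 lower gene, and without WT 1 or WT 3 it held 1 higher and 2 lower. The closest relatives of the neck proteins, Ehd1, Ehd3, Ehd4 and Pacsin1, differed by −0.28, −0.19, −0.04 and −0.22, with adjusted p of 0.303 to 0.873, and the flotillin genes Flot1 and Flot2 by −0.12 and −0.27 (adjusted p = 0.569 and 0.167).

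Profiles were also set against that of Cav1, as the root mean square distance over the 6 arrays after each gene was centred on its own mean. Of 18193 genes the nearest non-members were Babam2, Tpi1, Hspa2, Pts and Atp5b, at distances of 0.03, 0.05, 0.06, 0.07 and 0.07. Like Cav1, all 5 had Cav-3KO 2 as their lowest and WT 3 as their highest gland, which largely follows from choosing them by this distance. Among the members Ehd2 lay nearest to Cav1, with 2.82% of genes nearer, followed by Cav2 (5.30%), Cavin3 (8.94%), Cavin2 (12.1%) and Cavin1 (23.2%). Cav3 (35.8%), Pacsin3 (51.5%) and Cavin4 (87.9%) lay farther off. This ranking describes 6 arrays and rests on both the genotype difference and the spread within a genotype. Values were not scaled, so it also depends on how much a gene varies and is not a ranking of correlation.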

How the data were processed

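Total RNA of 6 glands was hybridised to single-channel Affymetrix arrays. The deposited values are log2 signals that the authors made with RMA, per the submitters' processing notes; its version is not given in the sources used here. RMA quantile normalizes the arrays, which removes a shift shared by most transcripts, and it compresses differences of dim sets. Of 45101 probe sets 64 controls were left out and 45037 tested, with no filter on dim sets. Platform annotation named 34945 with 1 symbol, updated by Entrez ID through RefSeq (GRCm38.p6); 932 had several and 9160 were not named here. A gene is shown by its brightest set on average.

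Cav-3KO and WT, grouped by title, were set against each other by limma 3.58.1 (R 4.3.3; lmFit and eBayes, two-sided, genotype only, 4 residual degrees of freedom), with Benjamini-Hochberg adjustment and a threshold of 0.05. The fit was tested on simulated data. Alternatives were other scalings, a filter on dim sets, another prior, array weights, a replicate block, fewer sets, averaged sets, other thresholds and each array left out. Members, gene lists and the naming rule were chosen with earlier results of these data known. All members were described; of the 19 related genes those that passed and the 6 with the smallest p were named, of each marker list the first 2 where measured, and the 5 genes nearest to Cav1. The related groups named beside these (EHD, pacsin and flotillin genes) were chosen after their values were seen.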

Additional observations from a re-analysis of the deposited data

How the results depend on the processing

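Across 288 recomputed values of the 20 member sets, 281 kept their direction and their side of the 0.05 threshold, 2 passed it newly (Cavin1 1424130_a_at without Cav-3KO 2 and Ehd2 1459823_at with the muscle covariate, both given above) and 5 changed sign, all when 1 array was left out. With 1 array left out the difference ranged between −0.14 and 0.0063 for Cav3, between −0.19 and 0.0802 for Cavin3, between −0.13 and 0.0541 for Ehd2 1435785_at and between −0.0018 and 0.11 for Pacsin3 1437834_s_at. The number of member sets lower was 2 to 3 and that of member genes 0 to 1 with 1 array left out, and 0 were higher throughout. Without sets that can match several transcripts 1 member set was lower, since 1443832_s_at is left out there, and with averaged sets 1 member gene was lower. At a threshold of 0.01, 1 member set was lower, with 769 higher and 754 lower of all sets, 1 related gene higher and 1 lower, and 8 marker genes higher and 7 lower. At 0.1, 4 member sets and 2 member genes were lower, with 4110 higher and 4614 lower of all sets. The muscle covariate, added after seeing the data, left 1 related and 12 marker genes higher. The cause of these moves was not tested. With 1 array left out, 1142 to 3161 of all sets were higher and 1076 to 2826 lower, 1 to 2 related genes higher and 1 to 4 lower, and 10 to 17 marker genes higher and 7 to 13 lower, against 2587 and 2960 sets, 2 and 3 related genes and 19 and 15 marker genes with all arrays. No pairing of glands by the replicate numbers of the titles was seen. Deviations of same-numbered glands correlated at −0.05, 0.19 and −0.02, and 1 of the 3 Cav-3KO glands correlated best with the WT gland of its own number. So few glands cannot exclude a pairing. With the replicate number as a block, 2 member sets were lower and 0 higher, and 2590 sets were higher and 2762 lower overall. Other scalings, the other prior, array weights and the filter on dim sets changed no member call, and the filter left out sets that include Cav3 and Cavin4. Differences of sets within the Y-linked range cannot be read at these signals.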
